A study of Mus musculus with 2 samples.

Results

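The genes described here mark the oligodendrocyte lineage, and their transcripts were measured in cultured astrocytes. They are the rows of the WT and β-arrestin 1 (β-arr1) KO expression tables, joined by gene symbol, that carry the symbol Olig1, Olig2, Pdgfra, Cspg4, Mbp, Cnp, Mag, Cldn11 or Ugt8a. All 9 were listed in both tables, out of 16302 genes listed in at least one. The first 4 are precursor genes and the other 5 are myelin genes, a division that comes from what the genes are known to do and not from their values. The cells were niche astrocytes grown from the dentate gyrus (DG) of adult C57BL/6 mice, either WT or β-arr1 knockout, and the labels name no other treatment. According to the methods, the cultures were kept in serum and were shaken to detach oligodendrocyte progenitors, neurons and dividing cells. RNA sequencing was done on 1 WT and 1 KO library of PCR-amplified cDNA. The study sampled several mice of each genotype, and the sources do not say how they were combined in a library.

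Oligodendrocytes are the cells that wrap axons of the central nervous system in myelin. They arise from oligodendrocyte precursor cells (OPCs), dividing cells that persist in the adult hippocampus and carry the receptor PDGFRα and the proteoglycan NG2. OPCs that leave the cell cycle switch on myelin genes in turn, with enzymes of myelin lipids and structural proteins of the sheath among them. Astrocyte cultures often keep some cells of this lineage, which tend to sit on top of the astrocyte layer. PDGFRα and NG2 are also made by fibroblasts and by pericytes, so that neither gene alone names a cell type. Which cells of these cultures held the transcripts of Olig1, Olig2 or the other genes was not measured.

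Expression was given in FPKM, the number of fragments scaled to transcript length and to the mapped fragments of the library. The KO/WT ratio was taken from these values, and genes were counted as past a limit above 3/2 or below 2/3. Each genotype had 1 library, so replicate error is unknown and no test between genotypes was possible. The 95% intervals given here were computed from fragments estimated from FPKM and cover counting error only, without PCR duplication. The libraries held an estimated 9.54 M fragments in WT and 9.82 M in KO. Arrb1, the targeted gene, was at 7.62 (WT) and 2.72 FPKM (KO). Rows on the Y chromosome numbered 4 in KO and 0 in WT, so genotype and the sex of the mice sampled cannot be told apart. In bulk RNA, fewer cells of a type and less RNA per cell cannot be told apart either.

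All 4 precursor genes had more transcript in the β-arr1 KO library than in the WT library, by 1.41-fold to 2.11-fold. Olig1, Olig2 and Pdgfra were above the limit of 3/2. The 5 myelin genes did not share a direction. Cnp and Mag were higher in KO and Mbp, Cldn11 and Ugt8a lower, and Cldn11 alone was past a limit. The plot of levels shows the value of each gene in each library.

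**Figure D1:**
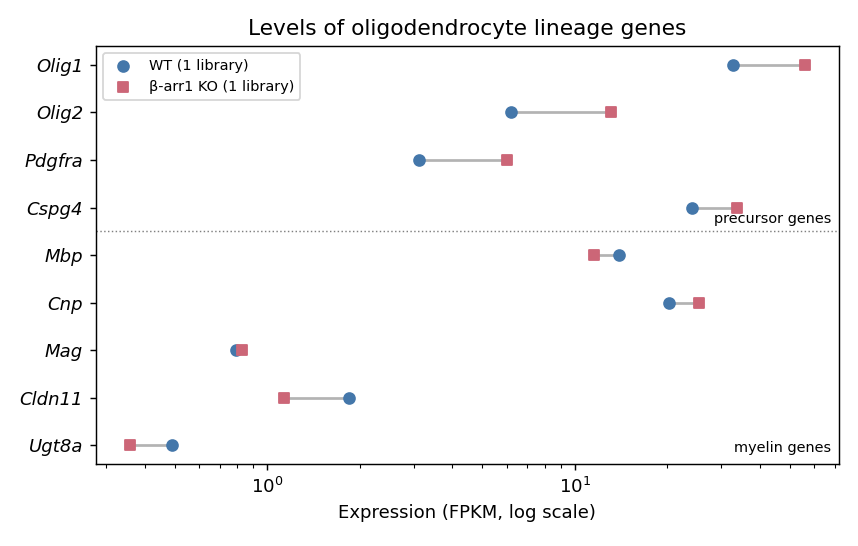
Expression of the 9 genes in FPKM on a log scale, with a circle for the WT library, a square for the β-arr1 KO library and a grey line between them; there is 1 library per genotype and no error bar. The squares of Olig1, Olig2, Pdgfra and Cspg4 lie to the right of the circles, from 6.03 FPKM for Pdgfra to 56.0 FPKM for Olig1 in KO, and those of the myelin genes lie on either side.

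Olig1 and Olig2 encode basic helix-loop-helix transcription factors that specify the lineage, and Olig2 is required for OPCs to form. Both genes lie on chromosome 16 (mm9, plus strand), Olig2 from 91225795 to 91228924 in the WT table and Olig1 from 91270014 to 91272184, with 41.1 kb between them. GENCODE annotates 1 exon for Olig1 and 2 exons for Olig2. Olig1 (NCBI gene 50914) was at 32.6 (WT) and 56.0 FPKM (KO). The estimated 623 (WT) and 1100 (KO) fragments put its ratio of 1.71 between 1.55 and 1.89. Olig2 (NCBI gene 50913) was at 6.19 (WT) and 13.1 FPKM (KO). Its ratio was 2.11 (interval, 1.72 to 2.61), higher than that of 95.7% of the 12646 genes analysed, those that reached 1 FPKM in either library. Olig2 had the highest ratio of the 9 genes, and its interval overlapped those of Olig1 and Pdgfra. Olig1 was the more abundant of the pair in both libraries, at 5.27 times the Olig2 level in WT and 4.28 times in KO.

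Pdgfra encodes the receptor through which PDGF-A drives OPC division and survival. Pdgfra (NCBI gene 18595) lies on chromosome 5 (plus strand, 75548316 to 75594229), and its longest transcript has 23 exons. It was at 3.12 (WT) and 6.03 FPKM (KO), with a KO/WT ratio of 1.93 (interval, 1.62 to 2.31) from an estimated 191 and 379 fragments. Cspg4 encodes NG2, a chondroitin sulfate proteoglycan of the OPC surface. Cspg4 (NCBI gene 121021), on chromosome 9 (plus strand, 56712911 to 56747677) in the KO table, was at 24.0 (WT) and 33.8 FPKM (KO). Its ratio of 1.41 was below the limit of 3/2, and with an estimated 1804 and 2616 fragments its interval was the narrowest of the 9, from 1.33 to 1.496. The Cspg4 row of WT started at 56712850, a little upstream of the KO row. No other row of either table overlapped the row of any of the 9 genes.

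Of the 9 genes, 3 were above 3/2, all of them precursor genes, and 1 was below 2/3. Among all 12646 genes analysed, 9.56% were above 3/2 and 8.28% were below 2/3. Over all genes the directions were close to even, with 53% higher in KO and a median log2 ratio of 0.02 (with 0.1 added to each value). The filter of 1 FPKM was passed by 7 of the 9 genes, each of which reached it in both libraries, and Mag and Ugt8a stayed under it in both. Among the 11622 genes that reached 1 FPKM in both libraries, 6.45% were above 3/2 and 5.35% below 2/3. The 3 genes above 3/2 also had intervals above 1, beside 7.07% of the 11841 genes with an interval. With a minimum of 5 FPKM, 3 of the 9 were above 3/2 and 0 below 2/3, beside 6.81% and 5.74% of all genes passing it, but Pdgfra passed that minimum through KO alone. With limits of 2 and 1/2, Olig2 alone was above and 0 were below, beside 4.78% and 4.42%.

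**Figure D2:**
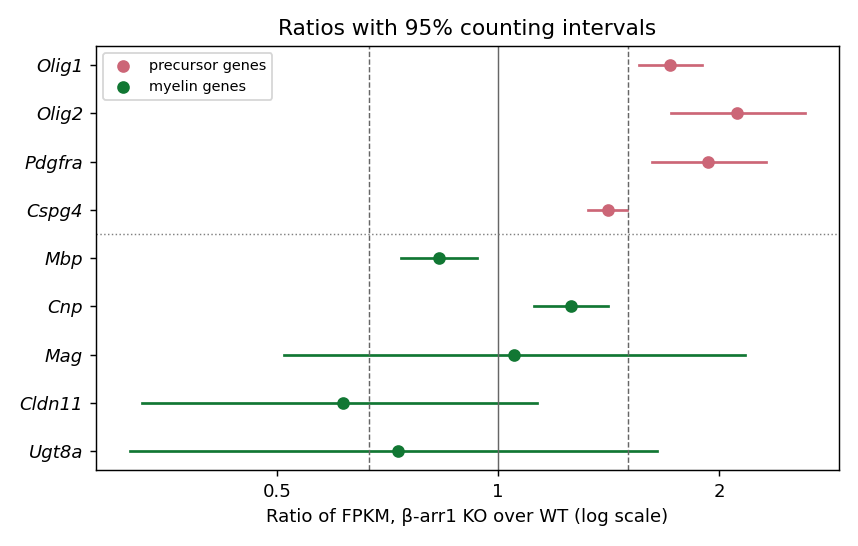
Ratio of FPKM, β-arr1 KO over WT, on a log scale for the 9 genes, with lines for the 95% counting intervals; the solid vertical line marks 1 and the dashed lines mark 2/3 and 3/2. The 4 intervals of the precursor genes lie above 1, from 1.33 at the lowest bound to 2.61 at the highest, while those of Mag, Cldn11 and Ugt8a span 1 widely.

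Because Olig2, Pdgfra and Cspg4 moved in the same direction, the sequence before their start sites is shown. That of Cnp, the most abundant myelin gene, is shown beside them. Cnp was also higher in KO (ratio, 1.26), so it is no contrast in direction. The sequences are RefSeq promoters of GRCm38.p6, cut to the 250 bases before the start. An entry was found for 7 of the 9 genes, and Olig1 and Mbp had none. They were searched on both strands for ACAAAG and ACAATG, cores bound by Sox factors such as SOX10, and for the E-boxes CAGCTG and CATCTG, which OLIG2 can bind. Capitals mark the matches, none of which overlapped another.
Olig2 (chr16:91225300-91225549, plus strand): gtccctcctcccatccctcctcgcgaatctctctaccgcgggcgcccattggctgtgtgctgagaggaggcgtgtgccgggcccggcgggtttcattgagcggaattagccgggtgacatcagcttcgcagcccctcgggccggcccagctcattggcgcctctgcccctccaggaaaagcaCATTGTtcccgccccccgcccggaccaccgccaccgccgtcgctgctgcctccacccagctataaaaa
Pdgfra (chr5:75152001-75152250, plus strand): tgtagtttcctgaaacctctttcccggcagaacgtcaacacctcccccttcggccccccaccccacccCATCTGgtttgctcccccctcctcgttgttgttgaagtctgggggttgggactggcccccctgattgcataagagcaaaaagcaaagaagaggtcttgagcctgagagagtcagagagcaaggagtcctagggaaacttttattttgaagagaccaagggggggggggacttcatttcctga
Cspg4 (chr9:56864854-56865103, plus strand): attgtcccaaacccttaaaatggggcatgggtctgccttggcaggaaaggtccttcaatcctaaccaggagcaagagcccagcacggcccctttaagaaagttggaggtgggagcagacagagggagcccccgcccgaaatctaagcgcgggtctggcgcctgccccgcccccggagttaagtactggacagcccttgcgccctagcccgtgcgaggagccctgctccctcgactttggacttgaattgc
Cnp (chr11:100574689-100574938, plus strand): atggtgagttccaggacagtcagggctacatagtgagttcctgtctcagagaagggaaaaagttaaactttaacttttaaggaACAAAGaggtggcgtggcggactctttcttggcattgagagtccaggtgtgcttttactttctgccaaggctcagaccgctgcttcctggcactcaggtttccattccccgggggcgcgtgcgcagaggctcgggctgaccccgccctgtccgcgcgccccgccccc

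Olig2 had 1 Sox core, ACAATG on the minus strand (read as CATTGT on the printed strand), beginning 68 bases before the start. Cnp had 1 as well, ACAAAG on the plus strand, 167 bases before the start. Mag, a gene of the minus strand, has several RefSeq starts and an ACAAAG on the strand opposite to the gene (read as CTTTGT in the direction of the gene). This same site stood 126 bases before one of the starts and 67 bases before another. Pdgfra had the E-box CATCTG at 182 bases, and Cspg4, Cldn11 and Ugt8a had no match to these letters. Among the 32851 RefSeq promoters of this length, 25.2% held at least one of the 2 Sox cores and 25.5% at least one of the 2 E-boxes. Matches of this kind are therefore common, and they are a description of letters, not of binding, which was not measured.

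Among the myelin genes, Cnp and Mbp had the higher levels and the other 3 were under 2 FPKM in both libraries. Cnp encodes CNPase, an enzyme of uncompacted myelin that appears early in the lineage. Cnp (NCBI gene 12799), on chromosome 11 (plus strand, 100436253 to 100443053), was at 20.3 (WT) and 25.4 FPKM (KO). Its ratio of 1.26 had an interval of 1.12 to 1.41, above 1 and below 3/2. Mbp encodes myelin basic protein, which compacts the sheath. Mbp (NCBI gene 17196), on chromosome 18 (plus strand, 82644515 to 82755029), was at 13.9 (WT) and 11.6 FPKM (KO), with a KO/WT ratio of 0.831. Its row spans the long Golli form of the gene as well as the classic myelin forms, and GENCODE annotates 14 coding transcripts for it. With the longest transcript (4797 bases) the interval of Mbp was 0.739 to 0.935. With the shortest coding one (638 bases) the value would rest on an estimated 62 and 53 fragments, and the interval of 0.565 to 1.22 included 1. The deposited value does not show which of these forms was present.

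Mag, Cldn11 and Ugt8a rested on 12 to 30 estimated fragments in each library. Mag encodes the myelin-associated glycoprotein of the inner wrap. Mag (NCBI gene 17136), on chromosome 7 (minus strand, 31684202 to 31699851), was at 0.789 (WT) and 0.829 FPKM (KO), with a KO/WT ratio of 1.05 (interval, 0.511 to 2.17). Cldn11 encodes the claudin of the tight junctions between myelin layers. Cldn11 (NCBI gene 18417), on chromosome 3 (plus strand, 31048842 to 31063248), was at 1.85 (WT) and 1.14 FPKM (KO). Its ratio of 0.615 was below 2/3, but its interval of 0.327 to 1.13 included 1, and with a pseudocount of 1 the ratio was 0.750. Ugt8a encodes the transferase that makes galactosylceramide, the typical lipid of myelin. Ugt8a (NCBI gene 22239), on chromosome 3 (minus strand, 125568261 to 125641468), was at 0.489 (WT) and 0.357 FPKM (KO), with a KO/WT ratio of 0.730 (interval, 0.315 to 1.64). A difference between the libraries was not detectable at this depth for these 3 genes.

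The order of the levels per length was nearly the same in the 2 libraries. In WT it ran from Olig1 over Cspg4, Cnp, Mbp, Olig2 and Pdgfra to Cldn11, Mag and Ugt8a. In KO, Olig2 stood before Mbp, at 1.13 times its level against 0.444 times in WT, although the counting intervals of both levels overlapped in KO. The levels of Cldn11 and Mag also had overlapping intervals in both libraries, as did those of Mag and Ugt8a. Olig1 was higher than 85.7% of the rows of the WT table and 92.0% of those of the KO table, and Mag was higher than 19.4% and 19.6%.

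Taken as groups, the precursor genes had a median log2 ratio of 0.86 (1.82-fold) and the myelin genes one of -0.27 (0.831-fold), both without a pseudocount, a difference of 1.13 on the log2 scale. The summed level of the 4 precursor genes was 65.9 (WT) and 109 FPKM (KO), with a KO/WT ratio of 1.65. That of the 5 myelin genes was 37.3 (WT) and 39.3 FPKM (KO), with a KO/WT ratio of 1.05. The sum of the precursor genes was 1.77 times that of the myelin genes in WT and 2.77 times in KO. In all 20 pairs of a precursor and a myelin gene the precursor gene had the higher ratio. The counting intervals were apart in 12 of the 20 pairs. They were apart in all 4 pairs with Mbp and all 4 with Cldn11, in 3 of 4 with Cnp, in 1 of 4 with Ugt8a and in 0 of 4 with Mag. Genes are not replicates, and these counts describe the 2 libraries alone.

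**Figure D3:**
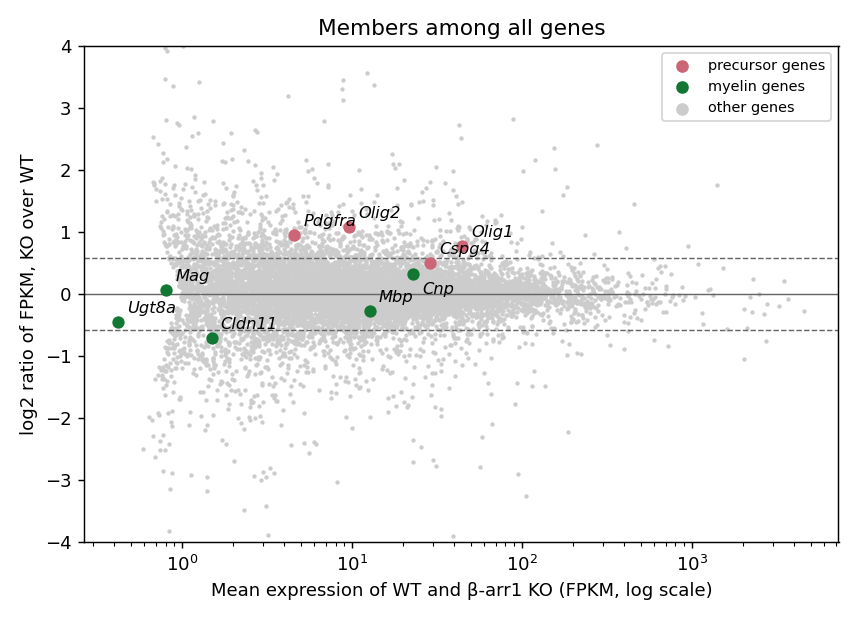
Mean FPKM of the 2 libraries on a log scale against the log2 ratio of β-arr1 KO vs. WT, with 1 grey point for each of 12171 genes with a value in both libraries and coloured points for the 9 named genes (21 grey points lie beyond the vertical axis). Dashed lines mark 3/2 and 2/3 on the log2 scale. The precursor genes lie at log2 ratios of 0.49 to 1.08 and the myelin genes at -0.70 to 0.33.

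Other genes known to be enriched in OPCs were looked up as a list of 26 genes that holds none of the 9. Of these, 24 were listed and 20 were analysed. Among the 20, 10 were above 3/2 (50%, beside 9.56% of all genes), 0 were below 2/3 and 18 were higher in KO. Of the 20, 18 reached 1 FPKM in both libraries, and 9 of these were above 3/2, beside 6.45% of all such genes. With a pseudocount of 1, 5 of the 20 were above 3/2, beside 6.93% of all genes. With a limit of 2, 1 of the 20 (Sox10) was above, a share near the 4.78% of all genes. The median log2 ratio of the 20 was 0.56, beside 0.02 for all genes. Astrocyte markers, described below, had 44.4% above 3/2 and a median of 0.47. The counting interval was above 1 in 14 of the 20 and below 1 in 0, beside 22.4% and 18.5% of the 11841 genes for which an interval could be computed. Sox10, the transcription factor that maintains oligodendrocyte identity, was at 0.907 (WT) and 1.82 FPKM (KO), with a KO/WT ratio of 2.0 (interval, 1.18 to 3.50) from an estimated 22 and 45 fragments, and it reached 1 FPKM in KO alone.

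Among the OPC-enriched genes at higher levels, Megf11 had a ratio of 1.74 (3.61 and 6.27 FPKM) and Lhfpl3 one of 1.71 (4.70 and 8.02 FPKM). Tnr, which encodes the matrix protein tenascin-R, was at 14.6 (WT) and 24.6 FPKM (KO), with a KO/WT ratio of 1.68 (interval, 1.53 to 1.86). Sox6, a transcription factor that holds OPCs in the precursor state, was at 5.10 and 8.22 FPKM. Cacng4, which encodes an auxiliary regulatory protein of AMPA receptors, was at 4.81 and 7.50 FPKM. C1ql1, a secreted protein of OPCs, was at 26.6 (WT) and 38.0 FPKM (KO), with a KO/WT ratio of 1.43 within the limits. The chondroitin sulfotransferase gene Chst11 had a ratio of 1.31 and Sox4 one of 0.980. Neu4 and Gpr17 were not listed in either table. Some of these genes, such as Ptprz1, Bcan and Ednrb, are also transcribed by astrocytes.

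Genes of later stages were looked up in the same way. Of 22 genes of differentiating oligodendrocytes, Ugt8a among them, 15 were analysed, with 2 above 3/2, 1 below 2/3 and a median log2 ratio of 0.20. Of 40 genes of myelin and mature oligodendrocytes, which share Tspan2 and Sirt2 with the former list, 25 were analysed, with 3 above 3/2, 4 below 2/3 and a median log2 ratio of 0.04. Bcas1, a marker of newly formed oligodendrocytes, had the highest ratio of the first list, 3.41, at low levels of 0.359 (WT) and 1.22 FPKM (KO) that passed the filter through KO alone. Gm98, an older symbol of the myelin regulator gene Myrf, was the one below 2/3, at 2.88 (WT) and 1.80 FPKM (KO), and both were picked after their values were seen. The shares above 3/2 were 13.3% and 12%, near the 9.56% of all genes. Below 2/3 they were 6.67% and 16%, beside 8.28%. The share of the mature list below 2/3 was thus higher than that of all genes. Counting only genes that reached 1 FPKM in both libraries, 1 of 14 and 2 of 24 were above 3/2, beside 6.45%. Of the same genes, 1 of 14 and 4 of 24 were below 2/3, beside 5.35%. Mobp was at 0.101 and 0.110 FPKM, on an estimated 3 fragments in each library. Mog, a marker of mature oligodendrocytes, was not listed in WT and was at 0.0662 FPKM in KO. The list of mature genes held its own exceptions. Plekhb1 had a ratio of 2.14 (26.9 and 57.4 FPKM), and Enpp2 (20.2 and 5.11 FPKM) and Car2 (14.7 and 3.71 FPKM) had ratios of 0.253 each. Adamts4 and Apod were also below 2/3, at 0.575 and 0.609. Enpp2, which encodes autotaxin, Car2 and Apod are expressed by cells outside the lineage too.

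**Figure D4:**
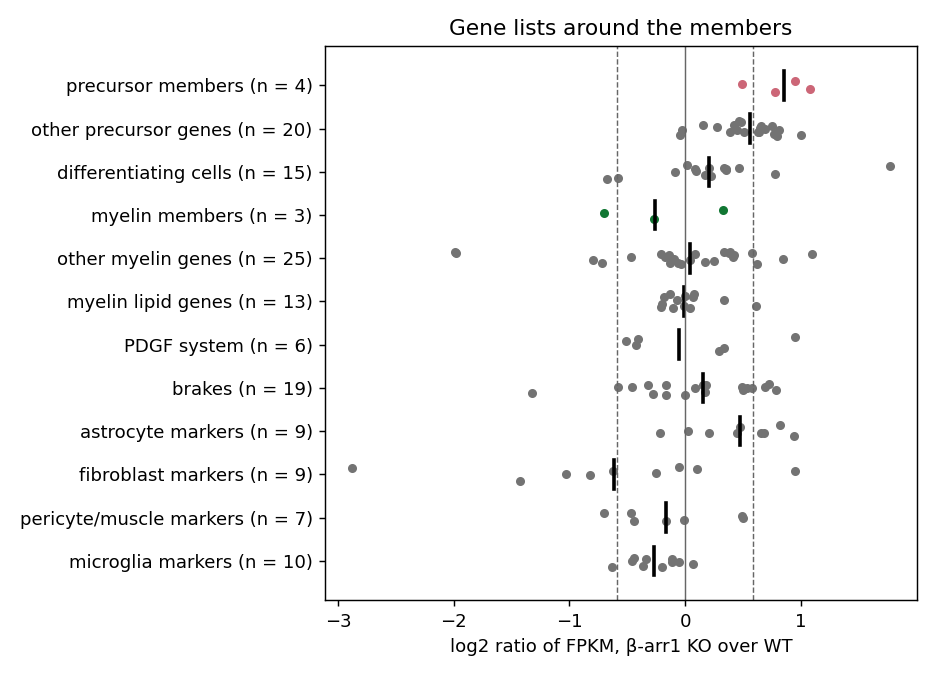
Log2 ratio of FPKM, β-arr1 KO vs. WT, for the analysed genes of the lists shown, 1 point per gene with the number of genes in parentheses, black bars for the median of log2((KO + 0.1)/(WT + 0.1)) and dashed lines at 3/2 and 2/3. The medians lie at 0.85 for the precursor genes named here and 0.56 for the other OPC-enriched genes. They lie at 0.04 for the other myelin genes, at 0.47 for astrocyte markers and at -0.62 for fibroblast markers. The row of brakes mixes genes that hold back differentiation with others of the same pathways.

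The PDGF ligand genes went in both directions and none was past a limit. Pdgfa, the ligand of PDGFRα that acts on OPCs, was at 59.1 (WT) and 72.5 FPKM (KO), with a KO/WT ratio of 1.23. Pdgfb (11.8 and 14.9 FPKM) had a ratio of 1.26. Pdgfc (20.9 and 15.6 FPKM) and Pdgfd (27.3 and 20.6 FPKM) had ratios of 0.747 and 0.756. Pdgfra was the only one of 6 analysed genes of the system past a limit (16.7%, beside 17.8% of all genes). Pdgfrb was not listed in either table, which need not mean that it had no transcript. A list around the restraint of oligodendrocyte differentiation held 22 genes, of which 19 were analysed, with a median log2 ratio of 0.15. It mixes genes that hold back differentiation with others of the same pathways, such as the BMP antagonist genes Chrd and Nog. Of the 19, 3 were above 3/2 (15.8%, beside 9.56% of all genes) and 1, Chrd, was below 2/3 (5.26%, beside 8.28%). Chrd was at 3.46 (WT) and 1.38 FPKM (KO), and Nog at 9.09 and 13.1 FPKM. Id2, an inhibitor of helix-loop-helix factors, was at 82.5 and 93.1 FPKM, and Hes1, a Notch target, at 41.3 and 33.1 FPKM. Daam2 had a ratio of 1.73 (8.52 and 14.7 FPKM). Bmp4, whose product turns OPCs towards astrocytes, had a ratio of 0.669, just inside the lower limit. Of 15 genes of myelin lipid synthesis and turnover, which include Ugt8a, 13 were analysed. Past a limit was 1 of them (7.69%, beside 17.8% of all genes), the sphingomyelinase gene Smpd1, with a ratio of 1.53 (33.5 and 51.2 FPKM). The lysosomal lipid genes Psap and Asah1 had ratios of 0.913 and 0.995.

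Markers of other cells in these cultures differed between the libraries as well, and their part in the results above was not tested. Of 10 astrocyte markers, 9 were analysed, with 4 above 3/2 (44.4%, beside 9.56% of all genes) and 0 below 2/3 (beside 8.28%). The share above 3/2 was near the 50% of the OPC-enriched genes. The astrocyte markers had a median log2 ratio of 0.47. They summed to 308 (WT) and 354 FPKM (KO). Gfap, which made up most of this sum, was at 189 and 192 FPKM, while Aqp4 (7.05 and 13.5 FPKM), S100b (29.3 and 51.7 FPKM) and Aldoc (13.5 and 21.6 FPKM) had ratios of 1.92, 1.77 and 1.60. Gjb6 was not listed in WT and was at 0.0526 FPKM in KO. Of the 9 analysed markers, 8 were higher in KO, the direction of the precursor genes.

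Pdgfra is itself on the list of fibroblast markers. Without it, 8 were analysed, 0 of them above 3/2 (beside 9.56% of all genes), 5 below 2/3 (beside 8.28%) and 3 within the limits. The list summed to 680 (WT) and 386 FPKM (KO). Col1a1 (420.5 and 237 FPKM), Col1a2 (92.3 and 34.3 FPKM), Col3a1 (88.3 and 43.3 FPKM) and Dcn (6.11 and 0.831 FPKM) were below the limit, Dcn having reached 1 FPKM in WT alone, and Lum was listed in WT alone. Thy1, Tbx18 and Twist1 had ratios of 1.07, 0.964 and 0.837, with intervals that included 1. Of 10 pericyte and smooth muscle markers, which concern Cspg4, 7 were analysed. Above 3/2 there were 0, and 1 (Rgs5, 5.83 and 3.58 FPKM) was below 2/3 (14.3%, beside 8.28% of all genes). These markers summed to 5483 (WT) and 5178 FPKM (KO). Tagln and Acta2 made up nearly all of that sum. Their ratios were 0.891 and 0.996, that of Myh11 was 1.4, and Kcnj8 was not listed in either table.

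Schwann cells, the myelinating cells of peripheral nerve, share Sox10, Mbp and Mag with the lineage. Of 10 Schwann cell markers 6 were analysed, with 1 above 3/2 (Sox10, through KO alone) and 2 below 2/3. These shares were 16.7% and 33.3%, beside 9.56% and 8.28% of all genes. The Schwann cell markers summed to 19.7 (WT) and 13.9 FPKM (KO). Pmp2, which encodes a fatty acid binding protein of peripheral myelin, was below the limit (7.38 and 1.36 FPKM). Foxd3 was listed in WT alone. All 10 microglia markers were analysed, and they summed to 751 (WT) and 578 FPKM (KO). Above 3/2 there were 0, and 1 (Cd68, 185 and 119 FPKM) was below 2/3 (10%, beside 8.28% of all genes). Of 10 neuron markers 2 were analysed, Tubb3 (44.7 and 59.8 FPKM) and Stmn2 (36.6 and 43.4 FPKM). The list summed to 82.2 (WT) and 104 FPKM (KO), and these 2 genes made up nearly all of that sum. The other neuron markers stayed under 1 FPKM in both libraries. Among them were Rbfox3 (0.0743 and 0.108 FPKM), Snap25 (0.108 and 0.261 FPKM), Syt1 (0.207 and 0.157 FPKM) and Gad1 (0.137 and 0.266 FPKM). Map2 was not listed in either table, Dcx was listed in KO alone and Nefl in WT alone.

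The deposited tables annotate each gene with Gene Ontology terms, which give lists that were not chosen by hand, though they were looked up after the values of the 9 genes were known. Oligodendrocyte differentiation was given to 15 genes, among them Olig2. Of 13 analysed, 7 were above 3/2 (53.8%, beside 9.56% of all genes) and 2 were below 2/3 (15.4%, beside 8.28%). Sox10, Sox8 and Sox6, which were among the 7, are also on the OPC-enriched list, so the 2 lists are not independent. Without Olig2, 6 of the other 12 were above 3/2 and 2 below 2/3, and their median log2 ratio was 0.49. Ntrk2, the receptor of BDNF, was at 13.0 (WT) and 36.4 FPKM (KO), with a KO/WT ratio of 2.79. Shh had a ratio of 2.06 and Cdk5 one of 1.57. The largest difference of the term was a lower value, that of the transcription factor gene Nkx2-1, at 4.69 (WT) and 0.615 FPKM (KO), with a ratio of 0.131 (interval, 0.0726 to 0.222), and Gm98 was also below 2/3. Nkx2-1 reached 1 FPKM in WT alone and Sox10 in KO alone. Without them 6 of 11 were above 3/2, Olig2 still among them, and 1 below 2/3, beside 6.45% and 5.35% of all such genes. Oligodendrocyte development was given to 15 genes and none of the 9. Of 13 analysed genes 2 were above 3/2 (15.4%, beside 9.56% of all genes), Shh and Kcnj10 (9.60 and 18.7 FPKM). Below 2/3 there was 1 (7.69%, beside 8.28%). Myelination was given to 33 genes, among them Olig2, Mbp and Ugt8a. Of 30 analysed, 3 were above 3/2 and 0 below 2/3, a share of 10% beside 9.56% of all genes. Ntf3 and Pou3f1, which were among the 3, passed the filter through KO alone, and of the 27 genes that reached 1 FPKM in both libraries 1 was above 3/2 (Olig2). Myelin sheath was given to 21 genes, among them Mbp and Mag. Of 15 analysed, 2 were above 3/2 (13.3%, beside 9.56% of all genes). Among genes of the term that reached 1 FPKM in both libraries it was 1 of 14, beside 6.45% of all such genes. In that term Rtn4, which encodes Nogo and is expressed far beyond the lineage, was at 247 (WT) and 497 FPKM (KO), with a KO/WT ratio of 2.01.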

How the data were processed

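The data are 2 tables of RNA sequencing of cultured DG astrocytes, 1 library from WT and 1 from β-arr1 KO mice, grouped by the genotype in the labels. The authors aligned paired reads to mm9 with TopHat (1.4.0 in the submitters' processing notes), estimated expression with Cufflinks and deposited 1 FPKM value above 0 per gene. The Cufflinks version and annotation are not given in the sources used here. The tables were joined by symbol, the highest of rows sharing a symbol was kept, and a gene listed once was taken as 0 in the other library. Whether a gene without a row had no transcript or was left out for another reason cannot be told. Genes with at least 1 FPKM in one library were analysed, without a pseudocount. Starts were raised by 1, which made 38.6% of WT starts equal to GENCODE vM1 starts on NCBIM37 (3.05% as written).

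Depth was estimated from genes under 0.15 FPKM with 1 transcript longer than 1000 bases, where values sit at 1 to 3 fragments. Of 411 such WT genes 69.8% lay within 5% of a step (12.7% after shuffling), and of 428 KO genes 71.0% (14.3%). Fragments per gene used the longest GENCODE transcript less 170 bases. Intervals are Clopper-Pearson on the share of fragments, cover counting error only, and would widen if a shorter transcript were used. The computation was tested on simulated data. The promoters are RefSeq sequences of GRCm38.p6, another build than that of the tables.

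The 9 genes and the lists were chosen with earlier results of these data known. Genes were named by a rule: all 9, the 3 highest of each list by mean FPKM, up to 5 per list past a limit with at least 5 FPKM and an interval without 1, and a few defining genes. Not every gene chosen so is reported here, and some others, such as genes listed in one table alone, are named after their values were seen. Alternatives were 3 rescalings, pseudocounts of 0.1 and 1, other minima, limits of 2 and 1/2, and summed rows. The scripts ran in Python 3.11.15 (pandas 2.3.3, numpy 2.4.6, matplotlib 3.10.9, scipy 1.17.1).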

Additional observations from a re-analysis of the deposited data

How the results depend on the processing

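The ratios of Olig1, Olig2 and Pdgfra stayed above 3/2 under 3 rescalings of the libraries, both pseudocounts and both ways of summing rows, from 1.69 to 1.72, from 1.96 to 2.12 and from 1.71 to 1.94. Cspg4 stayed between 1.39 and 1.41. No ratio of the 9 genes changed direction under these alternatives. A pseudocount of 1 left 0 genes below 2/3 and moved the difference between the median log2 ratios of precursor and myelin genes from 1.13 to 0.90, since it pulls low values towards 1. A minimum of 5 FPKM also left 0 genes below 2/3, as Cldn11 is under it. Limits of 2 and 1/2 left 1 gene above (Olig2) and 0 below, beside 4.78% and 4.42% of all genes. Leaving out 1 gene at a time, an alternative added after seeing the data, kept the median of the precursor genes between 0.78 and 0.95 and that of the myelin genes between -0.36 and -0.10. Among the 20 analysed OPC-enriched genes, 5 were above 3/2 with a pseudocount of 1 (6.93% of all genes) and 1 was above a limit of 2 (4.78% of all genes), a share near the background, while the 3 rescalings gave 10. Depth limits Mag, Cldn11 and Ugt8a, for which 3 fragments would be worth 0.0895 to 0.188 FPKM. No paired analysis was possible because there is 1 library per genotype, and no library could be left out.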
